A study of Homo sapiens with 8 samples.

Results

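Spliced transcripts that host small nucleolar RNAs (snoRNAs) in their introns were followed in HEK293T cells with and without XRN1. The members were chosen by name as the rows of the count table for GAS5, ZFAS1 and 8 genes of the SNHG series (SNHG1, SNHG5, SNHG6, SNHG7, SNHG8, SNHG12, SNHG15 and SNHG16). The names were chosen with earlier results of these data known, so the counts of members below are descriptions. All 10 were found among the 10105 rows. HEK293T is a human embryonic kidney cell line, and the WT cells were compared with XRN1-null cells of the same line, in which CRISPR/Cas9 had left a frameshift deletion in an exon of XRN1. Whether they are 1 clone is not given in the sources used here. Both were harvested 24 h after plating. Polyadenylated RNA was measured by RNA-Seq and ribosome protected fragments (RPF) by Ribo-Seq, with 2 replicates per genotype and assay. The paper proposes that uncapped 3′ pieces of mRNAs, which are not translated, build up in XRN1-null cells. It adds that pieces without a poly(A) tail were not seen. Counts per gene cannot tell whole host transcripts from such pieces. In XRN1-null cells the mRNA of 7 of the 10 transcripts rose (22.9% of all rows did), that of 5 of them by at least 2-fold (5.25% of all rows). No RPF change of a member passed the threshold, and few of all rows did (0.633% higher, 1.14% lower). At an unadjusted p below 0.05 (edgeR quasi-likelihood) the RPF of 6 members were higher (16.2% of all rows) and those of 1 were lower (16.8%). The translation efficiency (TE) of SNHG15 fell (as in 1.78% of all rows).

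Once an mRNA has lost its cap, XRN1 digests it from the 5′ end. A snoRNA host is transcribed and spliced as a long RNA, and the snoRNAs are then trimmed out of the excised introns and guide the modification of ribosomal and other RNAs. The spliced exons are exported, can be loaded with ribosomes, and carry only short open reading frames (ORFs) that end upstream of exon junctions. A stop codon far upstream of an exon junction is the textbook trigger of nonsense-mediated decay (NMD), and GAS5 is a classical substrate of that pathway. Several host genes, GAS5 among them, are also known for a 5′ terminal oligopyrimidine (TOP) start, the element shared with ribosomal protein mRNAs.

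XRN1 itself was checked in every library first. Its RNA-Seq level was 33.5 and 33 CPM (counts per 1 M scaled counts) in WT cells and 282 and 253 CPM in XRN1-null cells. Its Ribo-Seq level was 34.4 and 49.8 CPM in WT and 22.6 and 18.4 CPM in XRN1-null cells. The mRNA of the targeted gene was thus higher and its RPF were lower in both XRN1-null libraries, and the mRNA level alone did not check the genotype. The study itself saw no XRN1 protein in a western blot of the XRN1-null cells. It also reports that the XRN1 transcripts of these cells keep an intron. RNA-Seq libraries held 33757487 to 38145433 counts and Ribo-Seq libraries 1921641 to 4399542 counts. The RNA-Seq totals are well above the numbers of mapped reads that the methods state for these paired-end libraries, so the mates of a pair may have been counted separately, and the number of independent fragments is then lower than the counts. Of 7 HEK293T marker genes, 6 had a row (VIM, KRT8, KRT18, NEFM, NEFL and CDH2, but not PAX2), and 0 of 5 markers of blood, endothelium, liver, fibroblasts and muscle had one. Rows named for mature snoRNAs numbered 0, so the values below are for the host exons and not for their products. In bulk RNA, more RNA per cell and more cells with the RNA cannot be told apart.

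The hosts differ in the snoRNAs they carry. By the RefSeq annotation the spans of the 10 genes hold 37 snoRNAs, of which 28 are named as box C/D snoRNAs, the guides of 2′-O-methylation, and 8 as box H/ACA snoRNAs, the guides of pseudouridylation. GAS5 holds 11 snoRNAs, SNHG1 9, SNHG12 4, ZFAS1 and SNHG16 3 each, SNHG5 and SNHG7 2 each, and SNHG6, SNHG8 and SNHG15 1 each. 2 products are printed to show what lies in the introns, 1 from the best known host and 1 from a host whose mRNA did not pass the threshold. SNORD78 lies at chr1:173834760-173834824 on the minus strand (GRCh37), within an intron of 87 of the 91 annotated GAS5 transcripts. SNORD12C lies at chr20:47895477-47895565 on the plus strand, within an intron of 11 of the 14 annotated ZFAS1 transcripts. Capitals mark the core of box C (TGATG) near the 5′ end and box D (CTGA) near the 3′ end, read on the strand of the snoRNA, and 71.5% of the 389 annotated SNORD genes hold both in this order.
SNORD78: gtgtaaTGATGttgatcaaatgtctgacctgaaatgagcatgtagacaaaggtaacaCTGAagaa
SNORD12C: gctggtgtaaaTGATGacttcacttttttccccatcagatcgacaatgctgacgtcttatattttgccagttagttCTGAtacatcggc

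The spliced exons carry short ORFs. Over the 352 annotated spliced transcripts of the 10 genes (GENCODE 44, on GRCh37), the first ORF ended more than 50 nt before the last exon junction in 92.6%, with 71.4% in ZFAS1 as the lowest and 100% in SNHG12 as the highest share of a gene. The median first ORF of a gene was 28 codons long. The 115 other long non-coding RNA (lncRNA) rows of the table gave 89.1% of 1987 transcripts and 25.5 codons. Taken per gene, the median share was 87.0% for the members and 94.3% for the other lncRNA rows, and the difference was not tested. In the reference transcript of ZFAS1 (4526 nt, 5 exons) the first ORF covers nt 100 to 177, with 25 codons before the stop and 3 exon junctions after it. The distance from the stop to the last junction was 151 nt. This ORF is printed because this ZFAS1 transcript has the NMD geometry while the mRNA change of the gene did not pass the threshold. The deposited width of the ZFAS1 row is 1028 nt, so the counted RNA may not be this transcript. Capitals mark the start and stop codons.
ZFAS1 ORF: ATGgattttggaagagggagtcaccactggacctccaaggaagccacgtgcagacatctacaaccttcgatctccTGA

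Transcript starts were read from the RefSeq table (GRCh38.p14), which held 8 of the 10 members and 1 start per gene, and not SNHG6 or SNHG15. A start at C followed by 4 pyrimidines, the minimal letters of a TOP start, was found on the transcribed strand in ZFAS1, SNHG5 and SNHG12, which is 3 of 8 members. It was found in 4.07% of all 35116 starts and in 5.66% of the 7897 starts of rows of the count table. The 3 matching starts are printed with SNHG1, whose run of pyrimidines is shorter, and show 10 bases before the start and 30 from it. Capitals mark the run of C and T that opens the transcript. For the other 5 members the letters are not at the 1 start of the table.
ZFAS1 start: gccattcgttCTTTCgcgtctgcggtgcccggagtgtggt
SNHG5 start: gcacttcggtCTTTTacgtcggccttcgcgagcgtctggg
SNHG12 start: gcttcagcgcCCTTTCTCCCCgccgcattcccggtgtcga
SNHG1 start: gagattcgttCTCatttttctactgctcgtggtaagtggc

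Of the 3 members with the matching letters SNHG12 mRNA rose, and the mRNA log2 fold changes of ZFAS1 (0.25) and SNHG5 (-0.37) did not pass the threshold. Of the 5 without them at the 1 start read, GAS5, SNHG1, SNHG7 and SNHG8 rose, and SNHG16 (-0.30) did not pass. GAS5 is among these 5 although it is known for a TOP start, so the split describes the starts read and not the TOP genes. The 3 hosts with the most snoRNAs (GAS5, SNHG1 and SNHG12) rose by more than 2-fold, as did SNHG7 with 2 snoRNAs and SNHG15 with 1. Whether the start or the number of snoRNAs goes with the mRNA change was not tested.

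The first comparison asked which host mRNAs accumulate without XRN1. With edgeR quasi-likelihood tests, Benjamini-Hochberg (BH) adjusted over all rows and called at an FDR below 0.005, 7 of the 10 members rose (GAS5, SNHG1, SNHG6, SNHG7, SNHG8, SNHG12 and SNHG15), beside 22.9% of all rows. Members that fell numbered 0, beside 23.2% of all rows. 5 members rose by at least 2-fold (GAS5, SNHG1, SNHG7, SNHG12 and SNHG15), beside 5.25% of all rows. The median log2 fold change of the members was 0.94 (range -0.37 to 1.97), against -0.01 for all rows. At an unadjusted p below 0.05 in edgeR's quasi-likelihood test, 8 members were higher, beside 34% of all rows, and 2 were lower (SNHG5 and SNHG16), beside 36%. DESeq2 and the likelihood ratio test each called 1 lower member, SNHG5, and their shares of all rows are not given here. The summed level of the members was 1070 and 918 CPM in the WT RNA-Seq libraries and 1800 and 1770 CPM in the XRN1-null libraries.

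**Figure D1:**
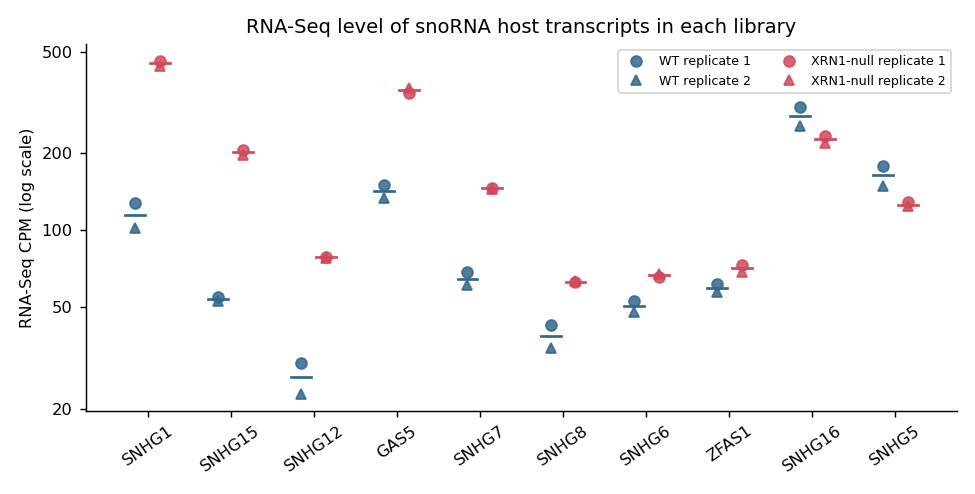
RNA-Seq level of each snoRNA host transcript in CPM on a log axis, with circles for replicate 1, triangles for replicate 2 and bars for the mean of WT (blue) and XRN1-null (red) cells, ordered by log2 fold change. The XRN1-null points lie above the WT points for 8 transcripts, from SNHG1 (102 and 128 CPM against 442 and 462 CPM) to ZFAS1, and below them for SNHG16 and SNHG5.

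SNHG1 had the largest mRNA change of the members. It lies at chr11:62619450-62623425 on the minus strand (GRCh37) and hosts a row of box C/D snoRNAs, SNORD22 and SNORD25 to SNORD31. RNA-Seq gave 128 and 102 CPM in WT cells and 462 and 442 CPM in XRN1-null cells. The groups were far apart, and the WT replicates differed more from each other than the XRN1-null replicates did. The mean went from 115 ± 18.4 to 452 ± 14.7 CPM (SD, n = 2 each), a fitted rise of 3.93-fold with a log2 fold change of 1.97 (SE 0.108, adjusted p = 1.09e-05, edgeR quasi-likelihood, BH). Its mRNA change was larger than that of 99.3% of the rows.

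SNHG15, the host of the box H/ACA snoRNA SNORA9, lies at chr7:45022618-45026560 on the minus strand (GRCh37). Its RNA-Seq level was 54.9 and 52.6 CPM in WT cells and 207 and 198 CPM in XRN1-null cells. Replicates of either genotype lay close together, so this was the change with the smallest SE among the members. The rise was 3.77-fold, with a log2 fold change of 1.91 (SE 0.0668, adjusted p = 2.91e-06, edgeR quasi-likelihood, BH). SNHG1 and SNHG15 share no exonic base with any other annotated gene.

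SNHG12, at chr1:28905050-28909644 on the minus strand (GRCh37), hosts SNORD99 and the box H/ACA snoRNAs SNORA16A, SNORA44 and SNORA61. It had the fewest RNA-Seq counts of the members in WT cells, at 30.2 and 22.8 CPM, and reached 78.6 and 78.1 CPM in XRN1-null cells. The XRN1-null replicates were nearly equal, and both lay above both WT values. The rise was 2.95-fold, with a log2 fold change of 1.56 (SE 0.119, adjusted p = 3.54e-05, edgeR quasi-likelihood, BH). Exons of SNHG12 overlap those of TRNAU1AP on the other strand, a gene for a factor of selenocysteine incorporation, and the named TruSeq RNA kit does not mark strand, so RNA-Seq reads of the overlap cannot be told apart. TRNAU1AP mRNA also rose, with 29.4 ± 0.793 CPM in WT against 53.1 ± 1.27 CPM (SD, n = 2 each), a smaller fold (1.81) than that of SNHG12.

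GAS5, at chr1:173827697-173838020 on the minus strand (GRCh37), is known for its accumulation on growth arrest and when translation or NMD is blocked. Its RNA-Seq level was 151 and 134 CPM in WT cells and 345 and 362 CPM in XRN1-null cells, with no overlap. The fitted rise was 2.48-fold, and the mean went from 143 ± 11.5 to 353 ± 12.1 CPM (SD, n = 2 each). The log2 fold change was 1.31 (SE 0.0767, adjusted p = 1.37e-05, edgeR quasi-likelihood, BH).

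SNHG7, the host of SNORA17A and SNORA17B, lies at chr9:139615818-139622636 on the minus strand (GRCh37). RNA-Seq gave 68.5 and 61 CPM in WT cells and 147 and 145 CPM in XRN1-null cells. The 2.25-fold rise (log2 fold change 1.17, SE 0.075, adjusted p = 1.86e-05, edgeR quasi-likelihood, BH) was the smallest of the 5 that passed 2-fold. Each of these 5 was also called without any 1 of the 4 RNA-Seq libraries, in fits where the lone library of an arm is assumed to vary like the other genotype.

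SNHG8 and SNHG6 rose by less than 2-fold. SNHG8, the host of SNORA24, lies at chr4:119199858-119206471 on the plus strand (GRCh37) and had 42.4 and 34.7 CPM in WT and 62.6 and 63 CPM in XRN1-null cells. The change was 1.63-fold (log2 fold change 0.70, SE 0.0958, adjusted p = 0.000482, edgeR quasi-likelihood, BH). SNHG6, the host of SNORD87, lies at chr8:67832796-67838633 on the minus strand (GRCh37) and had 53 and 47.7 CPM in WT and 65.9 and 67.6 CPM in XRN1-null cells. Both genes kept WT and XRN1-null libraries apart. For SNHG6 the change was 1.33-fold (log2 fold change 0.41, SE 0.0727, adjusted p = 0.00178, edgeR quasi-likelihood, BH). This was the weakest of the 7 calls, and without XRN1-null RNA-Seq replicate 1 or 2 its adjusted p was 0.0106 or 0.0168 in edgeR's quasi-likelihood test and the call was lost.

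ZFAS1, SNHG5 and SNHG16 did not pass the threshold in the analysis of all 4 RNA-Seq libraries. ZFAS1, at chr20:47894715-47916137 on the plus strand (GRCh37), hosts SNORD12, SNORD12B and SNORD12C. Its level was 61.7 and 57.3 CPM in WT and 72.9 and 68.8 CPM in XRN1-null cells, so that the groups did not overlap, but the log2 fold change was only 0.25 (SE 0.0698, adjusted p = 0.014, edgeR quasi-likelihood, BH). The likelihood ratio test of edgeR called it (adjusted p = 0.00354). Leaving out 1 RNA-Seq library at a time gave log2 fold changes of 0.20 to 0.33. Exons of ZFAS1 overlap on the other strand with those of ZNFX1, the gene of a zinc finger helicase that senses viral RNA, whose mRNA rose 1.43-fold.

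The other two members without a call in the quasi-likelihood test of all 4 RNA-Seq libraries were lower in XRN1-null cells. SNHG5, at chr6:86360209-86388650 on the minus strand (GRCh37), hosts SNORD50A and SNORD50B and had 178 and 149 CPM in WT and 129 and 124 CPM in XRN1-null cells (log2 fold change -0.37, SE 0.0901, adjusted p = 0.00773, edgeR quasi-likelihood, BH). SNHG16, at chr17:74553809-74667067 on the plus strand (GRCh37), hosts SNORD1A, SNORD1B and SNORD1C and had 303 and 256 CPM in WT and 235 and 220 CPM in XRN1-null cells (log2 fold change -0.30, SE 0.0901, adjusted p = 0.0205, edgeR quasi-likelihood, BH). In both genes the WT values lay above the XRN1-null values, by a gap smaller than that between the WT replicates. SNHG5 was called by DESeq2 (adjusted p = 0.00131) and by the likelihood ratio test of edgeR (adjusted p = 0.000576). Without WT RNA-Seq replicate 1 or 2 both were called, SNHG5 with adjusted p = 0.000225 or 1.4e-10 and SNHG16 with 0.00393 or 8.37e-10 (edgeR quasi-likelihood, BH), and the SNHG16 log2 fold change was -0.15 or -0.41.

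WT replicate 1 was above replicate 2 in 10 of 10 members by RNA-Seq, with a median log2 ratio of 0.2, while 50% of all rows were above and their median ratio was 0. In XRN1-null RNA-Seq, replicate 1 was higher in 7 of 10 members with a median log2 ratio of 0.04, beside 52.1% of all rows. In WT Ribo-Seq, replicate 1 was higher in 8 of 10 members (median log2 ratio 0.28, beside 50.3% of all rows), and in XRN1-null Ribo-Seq it was higher in 1 of 10, SNHG7 (median log2 ratio -0.22, beside 47.7% of all rows). The part of these shifts in the genotype changes was not tested beyond leaving each library out.

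The second comparison asked whether the RPF on the hosts changed with the mRNA. No member passed an FDR below 0.005 in Ribo-Seq, with 0 higher and 0 lower in edgeR's quasi-likelihood test, beside 0.633% of all rows that were higher and 1.14% that were lower. At an unadjusted p below 0.05, 6 members were higher, beside 16.2% of all rows, and SNHG16 was lower, beside 16.8%. DESeq2 called 0 higher and 0 lower members, and the likelihood ratio test called 3 higher (GAS5, SNHG1 and SNHG7) and 1 lower (SNHG16). The shares above are those of the quasi-likelihood test, and the shares of all rows called by these other tests are not given here. In 6 members both XRN1-null libraries lay above both WT libraries (GAS5, SNHG1, SNHG6, SNHG7, SNHG12 and SNHG15), beside 32.1% of all rows. In 1 member, SNHG16, both lay below, beside 32.3% of all rows. The median log2 fold change of the members in Ribo-Seq was 0.68 (range -0.57 to 1.04), against 0 for all rows. Without WT Ribo-Seq replicate 1 the median was 0.81, and without WT replicate 2 it was 0.40. Which members passed differed between these fits, in which the WT arm held 1 library. Member counts in Ribo-Seq ran from 12 to 912 per library, compared with 748 to 17490 in RNA-Seq, and the SE of the log2 fold changes ran from 0.138 to 0.274 in Ribo-Seq and from 0.0668 to 0.119 in RNA-Seq.

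**Figure D2:**
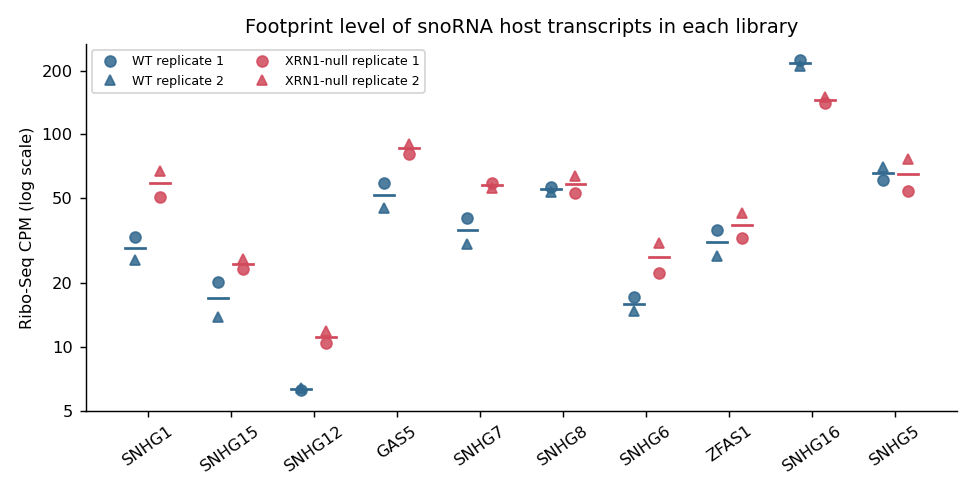
Ribo-Seq level of each snoRNA host transcript in CPM on a log axis, with the same order, symbols and colours as the plot of RNA-Seq levels. SNHG1, SNHG15, SNHG12, GAS5, SNHG7 and SNHG6 have both XRN1-null points above both WT points, SNHG16 has both below, and the points of SNHG8, ZFAS1 and SNHG5 overlap.

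SNHG1 had the largest RPF difference as well as the largest mRNA change. Its Ribo-Seq level was 32.8 and 25.7 CPM in WT and 50.7 and 67.1 CPM in XRN1-null cells. The mean was 29.3 ± 5.01 and 58.9 ± 11.6 CPM (SD, n = 2 each), with a fitted ratio of 2.06 (log2 fold change 1.04, SE 0.189, adjusted p = 0.00599, edgeR quasi-likelihood, BH). It just missed the threshold. Without WT Ribo-Seq replicate 1, WT replicate 2 or XRN1-null replicate 1 it was called (adjusted p = 1.33e-09, 0.000179 and 0.000336, edgeR's quasi-likelihood test), and without XRN1-null replicate 2 it was not (adjusted p = 0.0238). These fits leave 1 library in an arm, which is assumed to vary like the other genotype.

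GAS5 and SNHG7 had RPF log2 fold changes of 0.75 each. GAS5 was at 58.9 and 45.3 CPM in WT and 81.2 and 90.5 CPM in XRN1-null Ribo-Seq (SE 0.161, adjusted p = 0.0114, edgeR quasi-likelihood, BH). SNHG7 was at 40.6 and 30.6 CPM in WT and 59.3 and 56.2 CPM in XRN1-null Ribo-Seq (SE 0.168, adjusted p = 0.014, edgeR quasi-likelihood, BH). For both genes the WT and XRN1-null values did not overlap.

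SNHG6, SNHG12 and SNHG15 had fewer RPF counts and wider errors. SNHG6 was at 17.2 and 14.7 CPM in WT and 22.3 and 30.9 CPM in XRN1-null Ribo-Seq (log2 fold change 0.76, SE 0.218, adjusted p = 0.0378, edgeR quasi-likelihood, BH). SNHG12 rested on 12 and 28 counts in WT, against 42 and 38 counts without XRN1, which gave 6.25 and 6.43 CPM against 10.4 and 11.9 CPM (log2 fold change 0.80, SE 0.274, adjusted p = 0.0684, edgeR quasi-likelihood, BH). SNHG15 was at 20.3 and 13.8 CPM in WT and 23.3 and 25.9 CPM in XRN1-null Ribo-Seq (log2 fold change 0.61, SE 0.216, adjusted p = 0.0749, edgeR quasi-likelihood, BH). SNHG6 was the only one of the 7 upregulated hosts whose RPF log2 fold change was above its mRNA log2 fold change.

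The RPF of ZFAS1, SNHG5 and SNHG8 overlapped between genotypes. ZFAS1 was at 35.4 and 26.9 CPM in WT and 32.5 and 42.5 CPM in XRN1-null Ribo-Seq. SNHG5 was at 60.9 and 70.5 CPM in WT and 53.9 and 76.5 CPM in XRN1-null Ribo-Seq. SNHG8, whose mRNA rose, was at 56.8 and 53.5 CPM in WT and 53.1 and 63.7 CPM in XRN1-null Ribo-Seq. Their log2 fold changes of 0.31, -0.04 and 0.08 had adjusted p-values of 0.287, 0.9 and 0.726 in edgeR's quasi-likelihood test. SNHG16, the member with the most RPF counts, was at 223 and 209 CPM in WT and 141 and 150 CPM in XRN1-null Ribo-Seq (log2 fold change -0.57, SE 0.138, adjusted p = 0.0186, edgeR quasi-likelihood, BH).

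The change in TE, that of RPF relative to mRNA, was taken from the assay by genotype interaction over the 8 libraries. SNHG15 was the 1 member with lower TE, beside 1.78% of all rows. Members with higher TE numbered 0 in edgeR's quasi-likelihood test, beside 0.0495% of all rows, and also 0 in DESeq2 and in the likelihood ratio test. At an unadjusted p below 0.05, TE was lower in 5 members (GAS5, SNHG1, SNHG7, SNHG8 and SNHG15), beside 14.6% of all rows, and higher in 0, beside 8.76%. The median TE log2 fold change of the members was -0.48 (range -1.3 to 0.35), against 0.01 for all rows, and 3 members (ZFAS1, SNHG5 and SNHG6) were above 0.

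**Figure D3:**
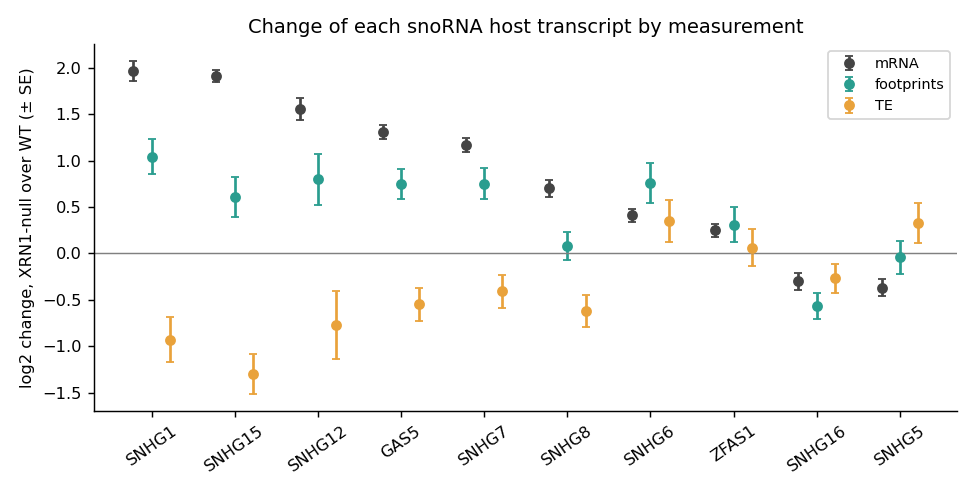
Log2 fold change of XRN1-null over WT cells for the mRNA (black), RPF (green) and TE (orange) of each snoRNA host transcript, with error bars of 1 SE from edgeR's quasi-likelihood fit. The mRNA change exceeds the RPF change for the 6 hosts on the left, from SNHG1 to SNHG8, and for SNHG16, where both are negative. SNHG15 has the lowest TE change at -1.3.

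SNHG15 mRNA rose 3.77-fold while its RPF ratio was 0.61 on the log2 scale. The TE log2 fold change was -1.3 (SE 0.217, adjusted p = 0.00398, edgeR quasi-likelihood, BH), which is a TE ratio of 0.407. The call was made in every alternative analysis over all 8 libraries, with adjusted p-values of 4.8e-07 to 0.0048 by edgeR or DESeq2. It was made without WT Ribo-Seq replicate 2, and it was lost without any other single library, with adjusted p-values from 0.00615 (without WT RNA-Seq replicate 1) to 0.0471 (without XRN1-null Ribo-Seq replicate 1) in edgeR's quasi-likelihood test. The TE log2 fold change stayed between -1.63 and -1.08 in these fits.

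The other hosts with the largest mRNA changes had TE changes of the same sign that did not pass the threshold. SNHG1 had a TE log2 fold change of -0.93 (SE 0.24, adjusted p = 0.0357, edgeR quasi-likelihood, BH), which the likelihood ratio test called (adjusted p = 0.00227). SNHG8 had -0.62 (SE 0.177, adjusted p = 0.0555) and GAS5 -0.55 (SE 0.181, adjusted p = 0.0907), both by edgeR quasi-likelihood. With a term for each genotype and replicate number, the culture replicate block, the same test called SNHG1 (adjusted p = 0.000834). It did not call SNHG8 (0.00745) or GAS5 (0.00913). SNHG12 had -0.77, but with an SE of 0.364 from its few RPF counts. SNHG7 and SNHG16 had -0.41 and -0.27, and ZFAS1, SNHG5 and SNHG6 had 0.06, 0.33 and 0.35, with adjusted p-values of 0.192 to 0.892 in edgeR's quasi-likelihood test.

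**Figure D4:**
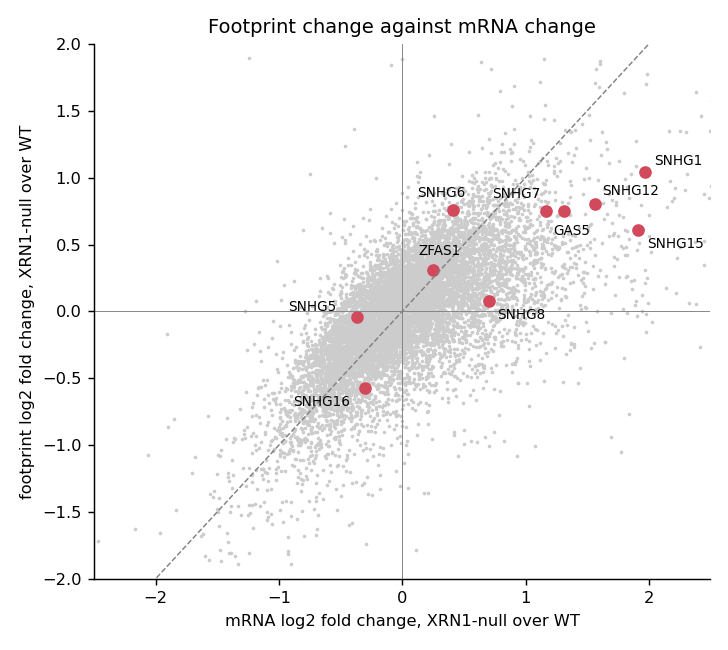
RPF log2 fold change against mRNA log2 fold change, XRN1-null over WT, for the 10 snoRNA host transcripts (red) and all other rows (grey), with a dashed line where both are equal. SNHG1, SNHG15, SNHG12, GAS5, SNHG7, SNHG8 and SNHG16 lie below the line on its right, SNHG16 with both changes negative, and 68 rows lie outside the axes.

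The amount of RPF per mRNA within a genotype was described as the log2 ratio of the mean Ribo-Seq CPM to the mean RNA-Seq CPM, with 0.5 CPM added to each. The deposited width of a row cancels in this ratio. The share of a transcript that is ORF does not cancel, and the median first ORF of a member gene was 28 codons. The part of ORF length in the ratios was not tested. In WT cells the median percentile of the hosts among the 10105 rows was 11.7, and the median of all rows was -0.28. SNHG12 (-1.98, above 4.02% of rows) and SNHG1 (-1.95, above 4.19%) had the fewest RPF per mRNA. SNHG15 and SNHG6 (-1.63 each), GAS5 (-1.44) and SNHG5 (-1.31) followed. The replicates of SNHG15 (-1.41 and -1.89) were farther apart than the means of these genes, and those of SNHG12 (-2.18 and -1.75) spanned both values of SNHG1.

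SNHG8 stood at the other end. Its WT ratio was 0.51 (0.42 and 0.62 in the replicates), above that of 85.6% of the rows, so that it had 1.43 times as many RPF CPM as mRNA CPM. SNHG16 (-0.37) was near the median of all rows, and ZFAS1 (-0.92) and SNHG7 (-0.85) lay between. All 10 members are annotated as lncRNAs, and fragments of footprint size that come from no ribosome cannot be told apart from RPF in these counts.

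In XRN1-null cells SNHG15 (-3.02), SNHG1 (-2.93) and SNHG12 (-2.76) were above only 0.742%, 0.91% and 1.28% of the rows. GAS5 was at -2.03 and SNHG7 at -1.33. SNHG8 was at -0.1, above 59.5% of the rows, and ZFAS1 was at -0.91, as in WT cells. The median percentile of the hosts was 16.1 and the median of all rows was -0.32.

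**Figure D5:**
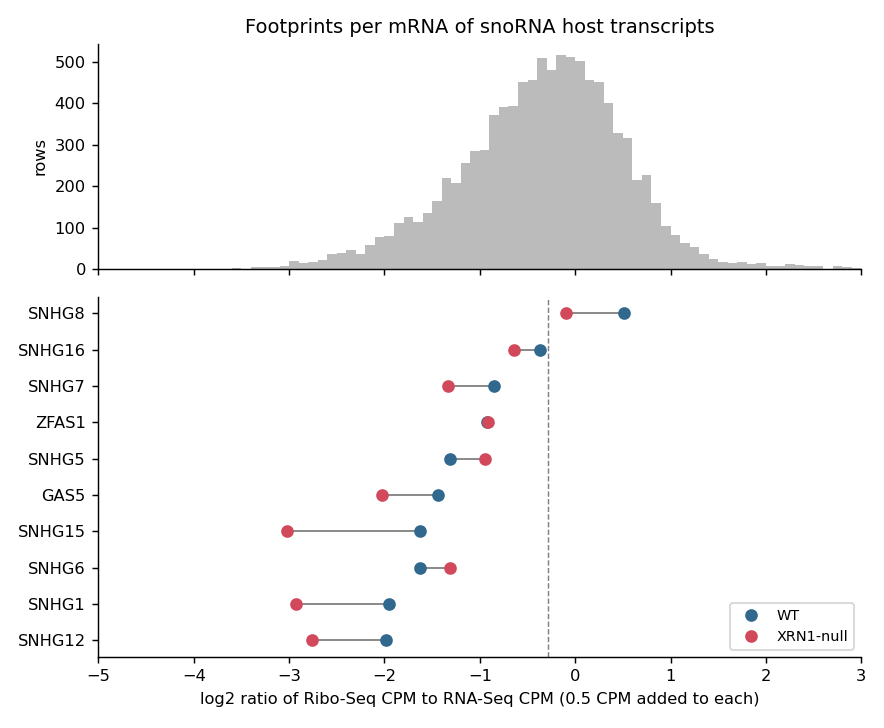
The upper panel counts all rows by their WT log2 ratio of Ribo-Seq CPM to RNA-Seq CPM, and the lower panel gives that ratio for each snoRNA host in WT (blue) and XRN1-null (red) cells, with the median of all rows in WT as a dashed line. In WT, 9 of the hosts lie left of the dashed line and SNHG8 lies right of it, and SNHG15, SNHG1 and SNHG12 are the lowest in XRN1-null cells.

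Levels between hosts were compared per kb of the deposited gene width, in CPM per kb. In WT RNA-Seq SNHG5 was the most abundant host at 323 ± 39.9 (SD, n = 2), followed by GAS5 at 226 ± 18.1. SNHG16 (110), SNHG6 (107) and SNHG1 (103) did not differ beyond their replicates, nor did SNHG8 (62.2) and either of its neighbours, SNHG15 (66.9) and ZFAS1 (57.9), while SNHG15 (68.4 and 65.5) lay above ZFAS1 (60 and 55.7). SNHG12 (35.8) and SNHG7 (24.2) were the lowest. In XRN1-null RNA-Seq the order was led by GAS5 (559) and SNHG1 (404), and SNHG15 (252) had reached SNHG5 (249). The widths are those of the table, and they differ from the lengths of the GENCODE reference transcripts, most of all for SNHG8 (619 and 6166 nt) and SNHG16 (2538 and 498 nt), so the order depends on them. Per kb of reference transcript, WT RNA-Seq gave SNHG16 562, GAS5 186, SNHG5 124 and SNHG8 6.25 CPM per kb, and SNHG16 took the first place from SNHG5.

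Per kb of deposited width, WT Ribo-Seq gave SNHG5 130 CPM per kb, SNHG8 89.1, SNHG16 85.2 and GAS5 82.4. SNHG12 was the lowest at 8.58. In XRN1-null Ribo-Seq GAS5 (136) and SNHG5 (129) were the highest.

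Other genes of the pathway were taken from lists. Of 21 listed names of other non-coding snoRNA hosts 11 had a row, and 4 rose and 6 fell in RNA-Seq, beside 22.9% and 23.2% of all rows, with a median log2 fold change of -0.55. C6orf48, the older name of SNHG32, rose from 55.7 ± 7.35 to 221 ± 3.48 CPM (SD, n = 2 each), and its log2 fold change was 1.99, close to that of SNHG1. Its RPF rose as well, from 12.2 ± 5.57 to 37.6 ± 3.32 CPM (log2 fold change 1.77, adjusted p = 0.00232, edgeR quasi-likelihood, BH). SNHG17 resembled SNHG15, with an mRNA log2 fold change of 1.92 and a TE log2 fold change of -1.4 (adjusted p = 0.00457, edgeR quasi-likelihood, BH). SNHG19 and SNHG9 mRNA fell, with log2 fold changes of -1.48 and -1.14.

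Of 35 protein-coding hosts outside the ribosomal proteins, 10 rose and 4 fell, beside 22.9% and 23.2% of all rows (median log2 fold change 0.08), among them PTCD3 at 0.88, CWF19L1 at 0.75, EEF1B2 at -0.54 and TPT1 at -0.41. Of 25 ribosomal protein genes that host snoRNAs, 23 fell and 0 rose (median -0.56), with RPS2 at -1.04 and RPL13 at -0.82. RPL13 was the 1 gene of this list whose RPF fell. The median of the ribosomal protein hosts was close to that of the other non-coding hosts, and opposite in sign to that of the 10 members.

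Factors that act on the hosts or their snoRNAs were read beside the same shares of all rows (22.9% higher and 23.2% lower). Of 14 NMD factors 9 rose and 2 fell (median log2 fold change 0.61). SMG9, a regulator of the SMG1 kinase, rose from 29.8 ± 6.5 to 72.3 ± 0.169 CPM (SD, n = 2 each), and UPF2, which bridges UPF1 and the exon junction complex, rose from 51.1 ± 8.28 to 122 ± 4.2 CPM. MAGOH and RBM8A, the core pair of the exon junction complex, fell, with log2 fold changes of -0.43 and -0.34. Of 8 core proteins of snoRNA particles 2 rose, NOP58 (0.77) and NOP56 (0.60) of the box C/D particle, and 4 fell, with NOP10 (-0.70) and NHP2 (-0.57) of the box H/ACA particle the furthest. Of 10 other lncRNAs that host no snoRNA 1 rose, PVT1 (1.96), and 2 fell, NORAD (-0.85) and CRNDE (-0.63).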

How the data were processed

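RNA-Seq and Ribo-Seq of WT and XRN1-null HEK293T cells (2 labelled replicates per genotype and assay) were analysed from counts. The authors removed rRNA reads with Bowtie2, mapped on hg19 with Tophat2, kept 29 and 30 nt footprints for Ribo-Seq, counted reads per gene with QuasR, and deposited these raw counts for genes above an FPKM of 2, with a gene width. Deposited edgeR and RiboDiff comparisons (fold changes, p-values, TE) were not used. The RNA-Seq kit named by the authors does not mark strand, and the strand setting of the counting is not given in the sources used here. RNA-Seq counts may hold both mates of a pair.

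All 10105 rows were fitted with edgeR 4.0.16 in R 4.3.3, with TMM factors within each assay. Genotype was the only term per assay. TE was the interaction of assay and genotype over 8 libraries. The quasi-likelihood test with Benjamini-Hochberg (BH) adjustment was used at an FDR below 0.005, and fold changes have an SE equal to the log2 fold change divided by the root of F. CPM use TMM-scaled totals. RiboDiff was not run. The scripts were tested on simulated counts. Alternatives were RLE scaling, library totals, DESeq2 1.42.0, the likelihood ratio test, a minimum of 10 counts in every library, an FDR below 0.05, a replicate block, RNA-Seq thinned to Ribo-Seq depth, and fits that left out each library in turn. The study calls them biological replicates, without saying whether they were separate cultures, and p-values measure the spread between these libraries. Counts of replicates differed by more than sampling noise in every group. Chi-square per degree of freedom was 24 in WT and 3.84 in XRN1-null RNA-Seq, and 7.77 in WT and 2.02 in XRN1-null Ribo-Seq. The fits assume the same spread in both genotypes. The members and the 7 lists were chosen with earlier results of these data known. Named list genes are the 2 called genes with the largest change in each direction in RNA-Seq. Introns, exons and ORFs are from GENCODE 44 on GRCh37 (hg19 coordinates). snoRNA counts and starts are from RefSeq, and sequences were read with pysam 0.24.0 in Python 3.11.15. Some overlapping sequence and genes are not reported here.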

Additional observations from a re-analysis of the deposited data

Results flagged for a closer look

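SNHG15 was picked out because its mRNA and RPF changed differently between genotypes in a test of the difference itself, the interaction of assay and genotype. Its TE log2 fold change was -1.3 (adjusted p = 0.00398, edgeR quasi-likelihood, BH). Its mRNA log2 fold change was 1.91, with both XRN1-null libraries above both WT libraries, and its RPF log2 fold change was 0.61, which did not pass the threshold. The cause was not tested.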

How the results depend on the processing

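Member counts were 12 to 912 per library in Ribo-Seq, and the biological coefficient of variation was 9.84% there and 6.02% in RNA-Seq. RNA-Seq thinned to Ribo-Seq totals gave 6 higher members. The shares of all rows called in this and the other alternatives are not given here, so these counts of members are descriptions. In RNA-Seq, higher members numbered 8 with the likelihood ratio test and at an FDR below 0.05, both adding ZFAS1, and lower members numbered 1 with DESeq2, 1 with the likelihood ratio test, 2 at an FDR below 0.05 and 2 with the replicate block. In Ribo-Seq, higher members numbered 1 with library totals, 3 with the likelihood ratio test, 4 at an FDR below 0.05 and 4 with the replicate block, and lower members numbered 1 in each of the last 3. In TE, lower members numbered 2 with the likelihood ratio test, at an FDR below 0.05 and with the culture replicate block, each time SNHG1 and SNHG15 (SNHG1 adjusted p = 0.000834 with the culture block, edgeR quasi-likelihood, BH). Leaving out 1 library, so that the lone library of an arm is assumed to vary like the other genotype, gave 6 to 8 higher and 0 to 2 lower members in RNA-Seq (median log2 fold change 0.82 to 1.08), 0 to 5 higher and 0 to 1 lower in Ribo-Seq (median 0.4 to 0.81), 0 to 1 lower in TE (median -0.65 to -0.31) and a median WT percentile of RPF per mRNA of 11.9 to 14.5. RNA-Seq lower members were 2 without WT replicate 1 or 2. Ribo-Seq higher members were 5 without WT replicate 1, 2 without WT replicate 2 and 1 without XRN1-null replicate 1. With thinning, the SNHG6 mRNA call was lost (adjusted p = 0.0176, edgeR's quasi-likelihood test). Directions reversed for results without a call. SNHG5 RPF (range -0.3 to 0.21) had 0.09 without WT Ribo-Seq replicate 2 and 0.21 without XRN1-null replicate 1, SNHG8 RPF had -0.05 without XRN1-null replicate 2, and ZFAS1 TE (range -0.17 to 0.26) had -0.01 without WT RNA-Seq replicate 1, -0.17 without WT Ribo-Seq replicate 2 and -0.13 without XRN1-null Ribo-Seq replicate 2. The cause was not tested. Replicate numbers are shared between genotypes, but deviations of same-numbered libraries correlated at 0.19 in RNA-Seq and 0.0803 in Ribo-Seq over 2 pairs, and replicate differences of RNA-Seq and Ribo-Seq at 0.355 in WT and 0.0326 in XRN1-null cells. The labels do not say that same-numbered libraries are pairs, and the main fits did not take them as pairs. Whether the WT value of 0.355 comes from shared cultures was not tested.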
